A study of Mus musculus with 16 samples.

Results

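The 87 genes described here are the autosomal protein-coding genes of the RefSeq mouse annotation (GRCm38.p6, the coordinates of mm10) whose symbols begin with Rpl or Rps and a number, together with Rplp0, Rplp1, Rplp2 and Rpsa and without the Rps6k kinases. They were chosen by symbol out of 34614 protein-coding and lncRNA genes, of which 20665 are autosomal and protein-coding. A standard set of 73 genes encodes proteins of the cytosolic ribosome (30 of the small 40S subunit, 40 of the large 60S subunit and 3 of the 60S stalk). The other members are 13 paralogs or retrocopies, and Rps19bp1, which encodes a protein that binds Rps19 and is not itself part of the ribosome.

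The libraries came from E14TG2a mouse embryonic stem cells, an established line, carrying wild-type Dnmt1 or the N1580A substitution on 1 allele, so that the knock-in cells also kept a wild-type allele. Cells of every group received 1 mM Ado-6-azide, an azide-bearing analog of the methyl donor, by electroporation, and genomic DNA was taken 3 h later. Labelled DNA was enriched and sequenced, and each deposited table lists CpG positions on the genome with the number of reads counted there. There were 3 heterozygous knock-in libraries (Het), 2 libraries each of knock-in cells at day 0 (naive, with the 2 inhibitors known as 2i) and at days 2, 4 and 8 of priming without the inhibitors, and, as background, 3 wild-type libraries and 2 labelled wild-type control. The labels do not state in which culture state the Het cells were, how the wild-type control differed from the wild type, or if each replicate was a culture of its own. The p-values here therefore speak only of library-to-library spread, which may be technical. In tests on counts of positions the fitted spread was near 0, so those p-values speak mostly of counting error.

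Ribosomal proteins assemble with ribosomal RNA into the small subunit, which reads the messenger RNA, and the large subunit, which forms the peptide bonds. Their genes are transcribed at high levels in dividing cells, are short, often start within CpG islands, and their messages begin with a pyrimidine tract through which their translation follows nutrient signals. Dnmt1 is the maintenance methyltransferase that copies CpG methylation onto newly made DNA, and CpG islands of active genes are as a rule unmethylated.

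Depth differed between groups. The 11 knock-in libraries held 390158 to 3423423 listed positions each (21416248 listings in all), and reads per position ran from 4.05 to 12. The 5 wild-type libraries held 960 to 9150 positions, 23097 listings in all. In the text a position is a CpG listed in at least 1 library, and a listing is 1 position in 1 library, so that a position in 4 libraries gives 4 listings.

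The promoters of the standard set were nearly free of listed CpGs, while those of several retrocopies and germline or muscle paralogs were not. RefSeq promoter windows (250 bases before to 50 after the start) were matched for 66 of the 87 genes, 53 of them in the standard set. The windows below show the contrast, 250 bases before and 30 after the start on the gene's strand, from RefSeq, GRCm38.p6. CpGs listed in any of the 11 knock-in libraries are in capitals. Rpl39l (chr16:10169978-10170257, plus strand), Rpl37rt (chr5:115110239-115110518, minus strand) and Rpl10l (chr12:66284372-66284651, minus strand) had the most listed CpGs of the 66 genes. Rps2 (chr17:24719813-24720092, plus strand) had the most of the standard set, and Rplp0 (chr5:115559217-115559496, plus strand) and Rps6 (chr4:86857338-86857617, minus strand) stand for the members with none.
Rpl39l: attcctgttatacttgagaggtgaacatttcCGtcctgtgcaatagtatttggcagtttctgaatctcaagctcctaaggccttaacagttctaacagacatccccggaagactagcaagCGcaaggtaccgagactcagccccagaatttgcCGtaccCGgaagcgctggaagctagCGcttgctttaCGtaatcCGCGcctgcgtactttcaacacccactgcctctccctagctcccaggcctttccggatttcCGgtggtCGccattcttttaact
Rpl37rt: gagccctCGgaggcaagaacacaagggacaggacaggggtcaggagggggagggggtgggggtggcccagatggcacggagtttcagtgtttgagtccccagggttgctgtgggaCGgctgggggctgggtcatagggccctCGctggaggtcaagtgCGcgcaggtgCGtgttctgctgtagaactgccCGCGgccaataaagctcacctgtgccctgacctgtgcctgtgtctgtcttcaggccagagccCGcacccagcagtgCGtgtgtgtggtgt
Rpl10l: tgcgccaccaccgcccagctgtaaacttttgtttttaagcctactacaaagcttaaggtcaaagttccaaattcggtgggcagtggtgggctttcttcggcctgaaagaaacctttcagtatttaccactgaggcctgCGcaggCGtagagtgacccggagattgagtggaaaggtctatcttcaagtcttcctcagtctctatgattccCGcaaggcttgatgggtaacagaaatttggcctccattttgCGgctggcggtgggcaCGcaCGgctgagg
Rps2: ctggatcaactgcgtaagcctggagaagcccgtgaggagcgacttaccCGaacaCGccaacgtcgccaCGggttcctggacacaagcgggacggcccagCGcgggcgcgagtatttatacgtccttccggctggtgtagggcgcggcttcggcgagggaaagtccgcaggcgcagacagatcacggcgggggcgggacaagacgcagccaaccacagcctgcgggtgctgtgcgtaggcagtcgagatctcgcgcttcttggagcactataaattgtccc
Rplp0: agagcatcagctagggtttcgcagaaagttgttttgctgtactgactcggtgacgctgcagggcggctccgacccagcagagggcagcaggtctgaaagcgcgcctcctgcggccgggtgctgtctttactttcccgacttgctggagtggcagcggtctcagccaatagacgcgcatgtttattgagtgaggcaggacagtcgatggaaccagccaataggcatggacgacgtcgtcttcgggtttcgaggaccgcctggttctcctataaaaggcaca
Rps6: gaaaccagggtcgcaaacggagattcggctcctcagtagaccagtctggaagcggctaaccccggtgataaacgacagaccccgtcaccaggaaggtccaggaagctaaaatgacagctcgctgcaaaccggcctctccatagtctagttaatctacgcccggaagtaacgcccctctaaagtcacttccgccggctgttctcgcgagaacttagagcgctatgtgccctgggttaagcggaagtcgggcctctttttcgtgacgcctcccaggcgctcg

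Over the 53 standard promoters, 15 of 1245 CpGs were listed in any knock-in library, or 1.20% (95% exact binomial interval 0.676 to 1.98%, counting error only). No CpG was listed in 44 of the 53 genes (83%). The same held for 54.4% of autosomal protein-coding genes with a window and 68.3% of those with at least 15 CpGs. The small subunit gave 6 of 539 CpGs (1.11%) and the large subunit with its stalk 9 of 706 (1.27%). Across 16457 autosomal protein-coding genes with a window the share was 7.35%, and across the 8701 of them with at least 15 CpGs it was 3.32%. The median number of CpGs was 23 in the standard promoters and 16 over all these genes. Mitochondrial ribosomal protein genes, which serve the separate ribosome of the mitochondrion, gave 2.26% (1.58 to 3.13%), ribosome assembly factors 1.80% (21 of 1167 CpGs) and translation factors 1.73% (0.971 to 2.84%). Genes without a listed CpG made up 69.6% of the mitochondrial list, 79.1% of the assembly factors and 79.3% of the translation factors, near the 83% of the standard set. CpGs of 1 promoter are not independent, so no test was made of these shares.

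Of the listed CpGs of the standard set, 4 lay in Rps2, a small-subunit protein at the entry of the messenger channel, and 3 in Rpl22, a large-subunit protein that also binds other RNAs. Rpl34 had 2, and 1 each was listed in Rps21, Rps26, Rpl10a, Rpl13a, Rpl24 and Rpl35. These positions seldom recurred: 3 of the 15 were listed in at least 2 libraries, 0.241% of the 1245 CpGs. Several members with many promoter CpGs had none, among them Rps19 (65 CpGs, but over 3 windows), which is mutated in Diamond-Blackfan anaemia, and, with 1 window each, Rpl9 (35), Rplp2 (34), Rpl7a (33) and Rpsa (29), the laminin-receptor protein of the small subunit.

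The wild-type libraries give the background. The 5 wild-type libraries together listed a CpG of the standard promoters 5 times in 23097 listings, or 216 per 1000000. The 11 knock-in libraries did so 20 times in 21416248 listings, or 0.934 per 1000000. Standard bodies held 18 listings in the 5 wild-type and 1432 in the 11 knock-in libraries, and standard flanks 22 and 7741. As shares of all listings these were 779 and 66.9 per 1000000 for bodies and 952 and 361 for flanks, so that promoters, bodies and flanks all took a larger share in the wild type, of a far smaller total. The knock-in numbers for bodies and flanks were the larger ones, out of far more listings and more libraries. In the promoters both numbers were small, so the part of background in the listed promoter CpGs is not known.

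Among the 12 paralogs and retrocopies with a window, 35 of 208 CpGs were listed, or 16.8% (12 to 22.6%). Rpl39l, the spermatogenic counterpart of X-linked Rpl39, had 11 of 17 CpGs listed, and Rpl10l, the testis retrogene that stands in for X-linked Rpl10 during meiosis, had 6 of 13. Rpl37rt, a retrotransposed copy of Rpl37, had 10 of 12 and Rps27rt, a copy of Rps27, had 3 of 9. Rpl3l, the muscle counterpart of Rpl3, had 2 of 5, Rpl32l had 2 of 3 and Rpl31-ps12 had 1 of 4. How reads that match several places were treated is not given in the sources used here, so values of retrocopies, and of the parent exons they resemble, are uncertain to that extent. The other 5, Rpl22l1 (30 CpGs), Rpl36al (42), Rps27l (53), Rpl7l1 (16) and Rps23rg1 (4), had none, and neither had Rps19bp1 (23).

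In the 3 Het libraries Rpl39l had 3, 7 and 4 promoter CpGs listed, in the day 4 libraries 2 and 2, and in the day 8 libraries 3 and 1. None was listed on day 0 or day 2. Rpl10l had 0, 3 and 1 in Het, 1 and 2 on day 4, 3 and 0 on day 8, and none on day 0 or day 2. Rpl37rt had 2, 4 and 0 in Het, none on day 0, 1 and 2 on day 2, 1 and 3 on day 4, and 3 and 3 on day 8. All 3 promoters lacked a listed CpG on day 0 and had at least 1 in every group from day 4 onward, with single libraries at 0. The day 0 libraries were the shallowest of the knock-in, and over all autosomal protein-coding genes the share of promoter CpGs listed per library was 0.224% on day 0 (n = 2) against 1.64% on day 8 (n = 2).

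**Figure D1:**
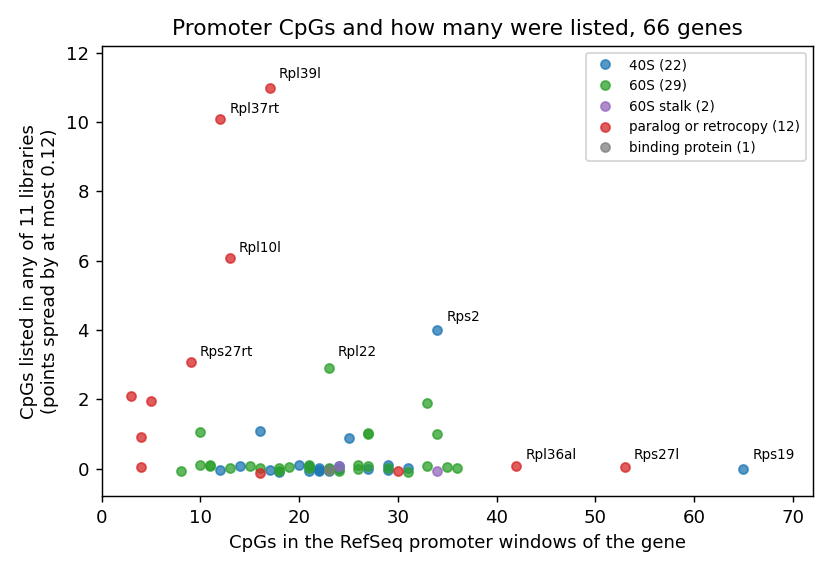
Each point is 1 of the 66 genes with a RefSeq promoter window, placed by its number of promoter CpGs (horizontal axis) and the number of them listed in any of the 11 knock-in libraries (vertical axis, points spread slightly), coloured by role. Rpl39l, Rpl37rt and Rpl10l stand at 11, 10 and 6 listed CpGs, while most standard genes lie at 0 whatever their CpG number.

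Sequence features of the promoters were searched on the same windows. The letters CCGGAAG, the core bound by ETS-family factors, were found on either strand in 23 of 53 standard genes (43.4%), in 13.3% of all autosomal protein-coding genes with a window and in 21.2% of those with at least 15 CpGs in 1 window. The 29 CpGs within these matches in the standard set included 0 listed ones, which allows a share of up to 10.3%. In all autosomal protein-coding genes 162 of 2887 such CpGs were listed (5.61%). The letters AAGATGGC, part of the site known for YY1, were found on either strand in 5 of 53 standard genes (9.43%) and in 3.59% of all. The letters CTTTC, a short pyrimidine run, began within 10 bases of the annotated start, read on the gene's strand, in 12 of 53 standard genes (22.6%) and in 3.38% of all. These matches describe the windows only.

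The depleted stretch reached beyond the promoter into the first part of the gene. Pooled over the 11 libraries, the 53 standard genes had 6.91 distinct positions per kb in the bin from 5 to 4.5 kb before the start and 7.25 from 2 to 1.5 kb before it. The density was 1.92 per kb in the last 500 bases before the start, 0.868 in the first 500 bases after it and 0.491 from 500 to 1000 bases, where 13 positions were found. It was 3.77 per kb from 1.5 to 2 kb and 7.21 from 4.5 to 5 kb after the start. The median length of the standard genes was 3183 bases, so the last bins lie past the end of many of them. All 16457 autosomal protein-coding genes had 4.15, 4.35 and 4.72 per kb in the same 3 bins around the start, and mitochondrial ribosomal protein genes had 3.01, 1.57 and 2.43. The paralogs and retrocopies (12 genes) went the other way, with 11.5 per kb in the first 500 bases.

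**Figure D2:**
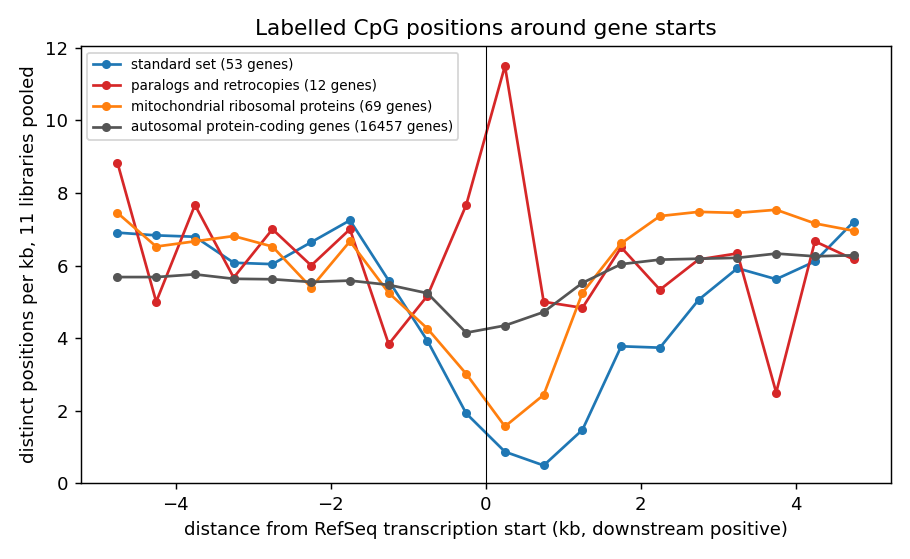
Distinct listed positions per kb, pooled over the 11 knock-in libraries, in 500-base bins from 5 kb before to 5 kb after the RefSeq start, for 4 gene sets. The standard set falls to 0.491 per kb between 500 and 1000 bases after the start, below the 4.72 of all autosomal protein-coding genes, and the 12 paralogs and retrocopies rise to 11.5 in the first 500 bases.

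Whole gene bodies were compared with their 5 kb flanks. Listings per kb were lower in the body than in the flanks for 76 of 87 members (87.4%), against 36% of autosomal protein-coding genes and 36% of those up to 10 kb long. In the standard set this held for 68 of 73 genes (93.2%), with a median of 4.55 listings per kb of body and 9.7 per kb of flank. Small-subunit genes had 4.66 per kb of body and 9.75 of flank, large-subunit genes 5.98 and 11.2, and the 3 stalk genes 3.59 and 12.9. The 13 paralogs and retrocopies had 13.8 per kb of body and 11.1 of flank. Mitochondrial ribosomal protein genes had medians of 11.4 and 10.7 listings per kb, and 43.6% of them had a body below the flanks.

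The test was edgeR's quasi-likelihood fit over the 11 libraries with the library as a block, Benjamini-Hochberg adjusted over all genes. By reads, 68 of 87 members passed the filter on low counts, and 29 were called lower in the body and 1 higher. The background was 4.33% of all tested genes lower and 9.13% higher. By distinct positions 10 members passed, of which 7 were called lower and 2 higher (background 16.3% and 33.4%). That filter keeps a gene with enough counts in body or flanks, so a member could pass through its flanks alone. Rps27rt, whose body held no listing, passed it by reads and by positions. The same fit was therefore also run with no filter on all 87 genes. It called 41 lower and 1 higher by reads (background 5.33% and 8.75%), and 51 lower and 6 higher by positions (background 14.3% and 26.9%).

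In the fit of positions with no filter, 21 of 30 small-subunit, 23 of 40 large-subunit and all 3 stalk genes were called lower, and 1 small-subunit and 1 large-subunit gene higher. The median log2 ratio of body to flanks was -1.06 over the 73 standard genes, 0.13 over all genes tested and 0.28 over autosomal protein-coding genes up to 10 kb. Among the paralogs and retrocopies 4 were lower and 4 higher. Mitochondrial ribosomal protein genes gave 15 lower and 17 higher of 78, ribosome assembly factors 6 and 16 of 52, and translation factors 11 and 13 of 38. The call counts depended on the flank: with 2 kb flanks 2 members were called by reads and 0 by positions, of 32 and 1 tested. Of all genes tested with 2 kb flanks, 10.2% were called by reads and 42.5% by positions. The test asks whether libraries agree on the ratio per base. It fits a single ratio over all knock-in groups, although the summed ratio of the standard set differed between them. CpGs per kb outside the promoter windows were not counted here, so a ratio per CpG is not known.

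Rpl10a, a large-subunit protein near the exit site for transfer RNA, had 1 position in its body in Het replicate 2 and none in the other 10 knock-in libraries. Its flanks had 14, 34 and 39 positions in Het, 3 and 3 on day 0, 14 and 8 on day 2, 29 and 31 on day 4, and 40 and 23 on day 8. The log2 ratio was -5.30 ± 0.54 (SE, n = 11, adjusted p = 1.01e-20 by edgeR). Here and below, the SE of a fitted log2 ratio or change is its size divided by the square root of the test's F. It is derived from the test and not estimated directly. For a body with few listings, such as this one, it can understate the uncertainty.

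Rpl18, another large-subunit protein, had 5, 7 and 8 body positions in Het, 0 and 1 on day 0, 0 and 0 on day 2, 3 and 3 on day 4, and 7 and 8 on day 8. Its flanks, which hold parts of Sphk2, Fam83e and Spaca4, had 23, 54 and 41 in Het and 53 and 44 on day 8, the densest flanks of the standard set at 31.5 listings per kb. The body lies below the flanks in each of the 11 libraries once length is counted (log2 ratio -1.99 ± 0.2 SE, adjusted p = 1.78e-21 by edgeR). Rps18, which contacts the initiator transfer RNA region of the small subunit, had 22 body and 249 flank listings (log2 ratio -2.02 ± 0.26), and Rps14, deleted in 5q- syndrome, had 21 and 205 (-1.91 ± 0.27). Rpl22 showed the smallest called depletion, with 125 and 175 listings over a 9647-base body (-0.43 ± 0.17, adjusted p = 0.0228 by edgeR). In the 3 Het libraries alone its ratio was 0.03.

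The bodies of Rps21, Rps27, Rps29 and Rpl41, all under 1500 bases, held no listing in any knock-in library, and Rps27rt (374 bases) was the fifth member without one. Their flanks held 121, 55, 85, 155 and 171 listings. Over all autosomal protein-coding genes up to 10 kb, 7.42% had an empty body. A body without a listing in a short gene is a bound and not a measured ratio, so no fold is given.

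The stalk proteins recruit translation factors to the ribosome. Rplp0 had 11 body and 162 flank listings, Rplp1 had 2 and 125, and Rplp2 had 20 and 99, and each was called lower with no filter (log2 ratios -2.56 ± 0.31, -2.77 ± 0.61 and -0.85 ± 0.32). Other members named for their roles fell on both sides of the threshold. Rpl3, which lines the peptidyl transferase centre, was lower in the body (-1.22 ± 0.24), as were Rpsa (-0.98 ± 0.21), Rps6, the substrate of S6 kinase (-1.49 ± 0.41), Rps2 (-1.20 ± 0.44), Rps24 (-1.18 ± 0.25) and Rpl23 (-0.79 ± 0.3). Rpl5 and Rpl11, which with the 5S RNA bind and restrain Mdm2, did not pass, with ratios of -0.11 ± 0.28 and -0.38 ± 0.26. Rps3 (-0.29 ± 0.3), Rps19 (-0.26 ± 0.23), Rpl13a (-0.90 ± 0.39) and Rps27a (adjusted p = 0.131 by edgeR), which is made as a fusion with ubiquitin, did not pass either.

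A few standard genes had a body density that was not below the flanks. Rpl4, which extends into the peptide exit tunnel, had 15.3 listings per kb of body and 7.3 of flank. It was called higher with no filter (log2 ratio 1.05 ± 0.25, adjusted p = 0.00268 by edgeR). In Rpl4, 12.4% of the pooled reads lay at 1 position. Rpl31, Rpl7 and Rps7 had 9.36, 7.65 and 4.5 listings per kb of body and 8.5, 7 and 4 of flank, and were not called.

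Rpl3l had the clearest labelled body. It had 22, 36 and 31 body positions in Het, 1 and 1 on day 0, 8 and 12 on day 2, 23 and 35 on day 4, and 24 and 22 on day 8, while its flanks had 6, 11 and 11 in Het and 17 and 10 on day 8. The body exceeded the flanks in every library (log2 ratio 1.71 ± 0.18 SE, adjusted p = 4.09e-20 by edgeR). Rpl32l, a 592-base gene, had 30 body and 189 flank listings, or 50.7 and 18.9 per kb (1.41 ± 0.32, adjusted p = 6e-05). With no filter Rpl10l (26.4 and 5.6 per kb; 2.19 ± 0.42) and Rpl39l (12.5 and 6.9; 0.84 ± 0.26) were called higher too. Rpl37rt (20.6 and 32.3 per kb; -0.65 ± 0.14), Rps27l (2.86 and 7.5; -1.34 ± 0.31) and Rpl36al (0.75 and 6.2; -2.70 ± 0.66) were lower. Rpl7l1 (16.7 and 15.7 per kb), Rps23rg1 (7.75 and 5.7), Rpl22l1 (2.09 and 5), Rpl34-ps1 (9.69 and 10.7), Rpl31-ps12 (4.13 and 5) and Rps19bp1 (11.1 and 11.3) did not pass.

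**Figure D3:**
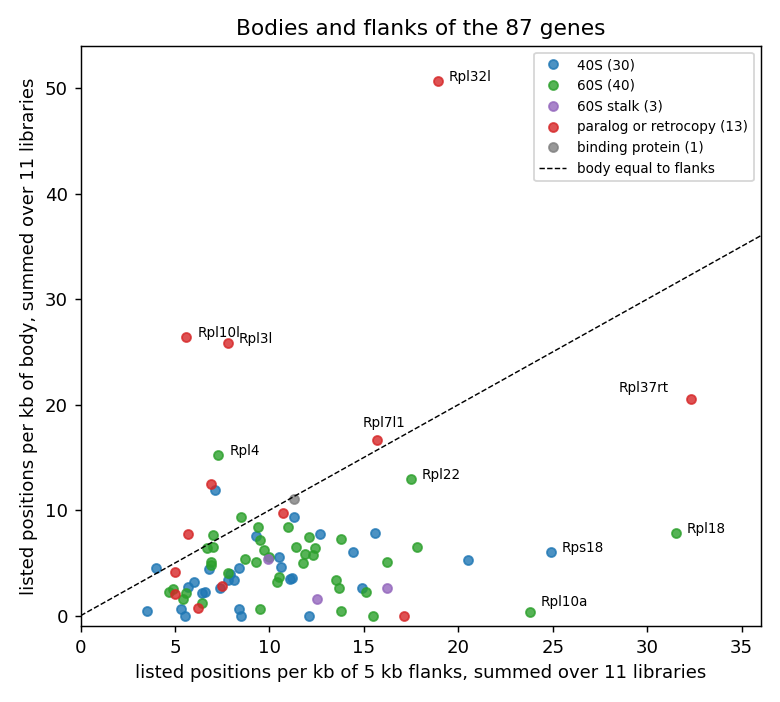
Each point is 1 of the 87 genes, placed by listings per kb of its 5 kb flanks (horizontal axis) and of its body (vertical axis), both summed over the 11 knock-in libraries and coloured by role, with a dashed line where they are equal. Of the 87 points 76 lie under the line, and Rpl32l, Rpl10l and Rpl3l lie highest above it.

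Over body and flanks together, the members with the most distinct positions per kb were Rpl37rt (13.3), Rpl18 (12.1), Rpl32l (10.6), Rps18 (9.51) and Rpl10a (8.99). Those with the fewest were Rps12 (1.97), Rpl31-ps12 (2.29), Rps7 (2.85), Rpl15 (2.89) and Rps15a (2.89). A window is shared ground: 69 of the 87 windows also hold part of another gene, and those of Rps2 and Rpl3l overlap. Of the standard genes 28 carry snoRNA genes in their bodies, 57 in all. Their median was 4.04 listings per kb of body, against 4.79 in the 45 without.

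Positions seldom recurred. The most often listed position of any member, near Rpl23, was found in 8 of the 11 libraries, and next came Rpl37rt and Rplp2 with 7. The single position with the largest share of pooled reads took 16.9% in Rpl22l1, 15.8% in Rps23, 14% in Rps27, 12.5% in Rpl31-ps12 and 12.4% in Rpl4, against a median of 6.24% over the 87 genes. Without molecular identifiers, several reads of a position may stem from the same molecule.

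The share of labelling that fell on the standard genes was higher in the day 4 and day 8 libraries than in those of day 0. Per 1000000 listed positions, the standard bodies had 89.9 ± 22.7 positions per Mb on day 0 (SD, n = 2), 133 ± 33.9 on day 2, 248 ± 26.2 on day 4 and 288 ± 20 on day 8, beside 280 ± 15.9 in Het (n = 3). Their flanks had 326 ± 36.9, 393 ± 0.37, 521 ± 28.8, 525 ± 24.6 and 519 ± 27.6. Both day 8 libraries lay above both day 0 libraries in body and in flank. All autosomal protein-coding bodies stayed between 503 and 520 in the group means of these 5 groups, and those up to 10 kb went from 535 ± 22.2 to 656 ± 29.4. Paralog and retrocopy bodies went from 176 ± 5.31 on day 0 to 647 ± 17.5 on day 8, while their flanks had 531 ± 2.33 and 496 ± 16.9. Their day 0 bodies rest on 8 positions in both libraries together, and 10 of the 13 had none, so the SD understates the uncertainty.

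The ratio of standard bodies to their own flanks was 0.274 ± 0.039 on day 0, 0.339 ± 0.087 on day 2, 0.477 ± 0.024 on day 4, 0.549 ± 0.064 on day 8 and 0.541 ± 0.044 in Het. By reads it did not climb steadily, from 0.392 ± 0.013 on day 0 down to 0.296 ± 0.075 in the day 2 libraries, then 0.488 ± 0.0039 at day 4 and 0.525 ± 0.092 at day 8. The small-subunit genes went from 0.12 ± 0.0055 on day 0 to 0.458 ± 0.105 on day 8 by reads, while the large-subunit and stalk genes had 0.567 ± 0.072 and 0.564 ± 0.082. By positions both rose, from 0.16 ± 0.015 to 0.487 ± 0.054 and from 0.339 ± 0.022 to 0.587 ± 0.07. The day 0 values rest on 4 body positions in the small-subunit genes and 15 in the large-subunit and stalk genes. In no group did the mean reach the 1.16 to 1.27 of all autosomal protein-coding genes. The day 0 bodies rest on 19 positions in 73 genes, and 57 of the 73 had none. Reads per position were 10.8 and 12 on day 0 and 4.11 and 4.05 on day 8, and the part of depth in this change was not tested.

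**Figure D4:**
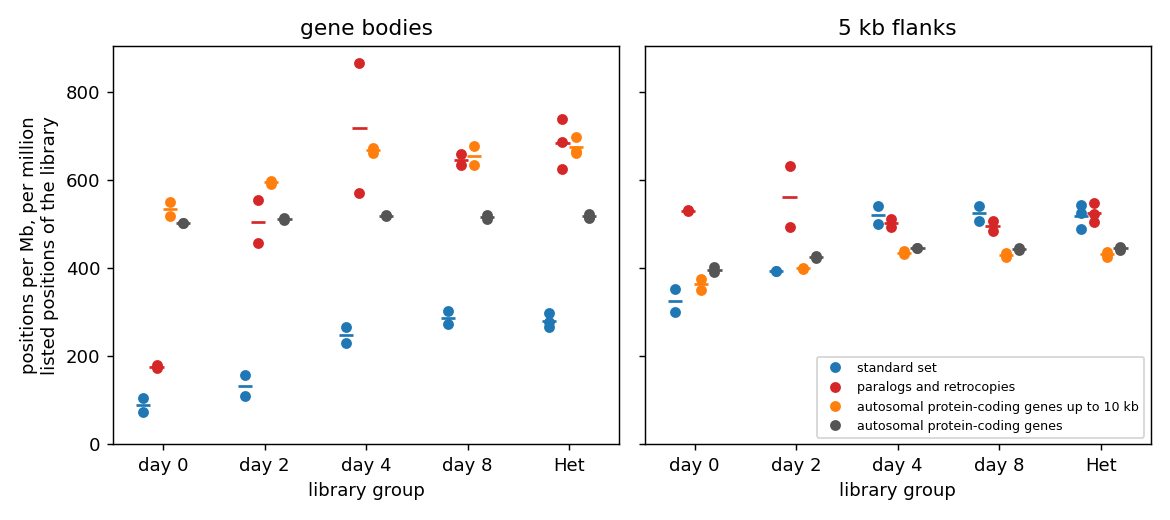
Listed positions per Mb and per 1000000 listed positions of the library, summed over the bodies (left) and 5 kb flanks (right) of 4 gene sets, with 1 point per library and a bar at the group mean for days 0, 2, 4, 8 and Het. The standard bodies go from 89.9 on day 0 to 288 on day 8 and lie under the other sets in each group.

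Single genes were tested over body and flanks with edgeR's quasi-likelihood fit on the 8 day libraries, adjusted over all genes tested; all comparisons against day 0 share its 2 libraries. On day 8 against day 0, 3 of 87 members were called higher by reads (Rpl7l1, Rpl3l and Rpl7a) and 0 lower, with a background of 1.93% higher and 1.27% lower. By positions 54 members passed the filter, with 3 higher (Rpl7l1, Rpl7a and Rpl22) and 0 lower, against 1.63% and 2.8%. DESeq2 called 18 members higher and 1 lower by reads, beside 5971 of all 33113 genes, and 0 by positions (4 at an unadjusted p under 0.05), beside 666 of 28751. The edgeR shares of the members rest on 3 genes each. Of autosomal protein-coding genes up to 10 kb, edgeR called 159 of 6816 higher and 9 lower by reads. By positions it called 61 of 4555 higher and 36 lower. The median member had 1 position in each day 0 library over body and flanks, so a fall could hardly be called. The median log2 change by reads was 0.75 over the members, 0.06 over all genes and 0.46 over autosomal protein-coding genes up to 10 kb. By positions both day 8 libraries lay above both day 0 libraries in 49 of 87 members and below in 4, against 34.7% and 16.4% of all genes.

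On day 4 against day 0, 5 members were called higher by reads (Rpl7l1, Rpl3l, Rpl7a, Rps2 and Rps28), against a background of 1.99% higher and 1.43% lower, and 3 by positions (Rpl7l1, Rpl3l and Rpl7a), against 1.56% and 2.87%. On day 2, 2 were higher by reads (Rpl7l1 and Rpl3l), against 0.809% higher and 0.317% lower, and 1 by positions (Rpl7l1), against 0.32% and 0.685%. On day 8 against day 2, 0 were called by reads (background 0.00302% higher and 0% lower), with 3 at an unadjusted p under 0.05 and 0 by DESeq2, and 1 by positions (Rpl22), against 0.139% and 0.111%. No member was called lower by edgeR in these comparisons. Autosomal protein-coding genes up to 10 kb gave 169 higher and 12 lower of 6816 by reads on day 4 against day 0. On day 2 against day 0 they gave 67 and 1. By positions they gave 61 higher and 34 lower of 4555 on day 4, and 8 and 6 on day 2.

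Rpl7l1, a relative of Rpl7 found in the nucleolus, had 0 and 0 positions in its body and flanks on day 0, 19 and 16 on day 2, 36 and 48 on day 4, 40 and 39 on day 8, and 18, 51 and 36 in Het. The day 0 libraries were the only knock-in libraries without a position there. With day 0 set to 3 positions for both libraries together, the most that a count of 0 allows at 95% confidence (counting error only), the share was at least 3.61-fold higher on day 2, at least 4.78-fold on day 4 and at least 3.7-fold on day 8 (adjusted p = 0.0072, 0.000171 and 0.00124 by edgeR on positions). The promoter of Rpl7l1 had no listed CpG, so these positions lay elsewhere in the window.

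Rpl7a, a large-subunit protein encoded in the Surfeit locus, had 0 and 0 positions on day 0, 7 and 3 on day 2, 15 and 19 on day 4, 26 and 27 on day 8, and 8, 24 and 15 in Het. All but 2 of the 53 day 8 positions lay in the flanks, which also hold Med22, Surf1 and Surf2. The share was at least 1.93-fold higher on day 4 and 2.49-fold on day 8 (adjusted p = 0.0487 and 0.0169 by edgeR on positions).

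Rpl3l had 1 and 1 positions on day 0, 15 and 14 on day 2, 28 and 44 on day 4, 41 and 32 on day 8, and 28, 47 and 42 in Het. The ratio of shares was 5.13 on day 8 (exact 95% interval 1.37 to 43.2, counting error only) and 6.15 on day 4 (1.64 to 51.7). By reads all 3 comparisons with day 0 were called (adjusted p = 0.0374, 0.0195 and 0.0198 for days 2, 4 and 8 by edgeR), and by positions only day 4 (adjusted p = 0.0347).

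Rpl22 had 2 and 1 positions on day 0, 8 and 9 on day 2, 36 and 32 on day 4, 54 and 43 on day 8, and 21, 47 and 47 in Het. The ratio of shares was 4.55 on day 8 against day 0 (1.51 to 22.4) and 2.59 on day 8 against day 2 (1.54 to 4.63), both called by positions (adjusted p = 0.0444 and 0.0461 by edgeR). Neither comparison was called by reads. Rps2 had 0 and 0 positions on day 0 and 9 and 13 on day 4, at least 1.25-fold higher, and Rps28, a small-subunit protein, had 0 and 0 and then 8 and 12, at least 1.14-fold. Both were called by reads only (adjusted p = 0.0487 and 0.0476 by edgeR).

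On day 8 against day 0, calls by reads changed with every library left out, for all genes as for the members. Leaving out any 1 of the day 2, 4 or 8 libraries left 0 members and 0 of all genes called. Leaving out day 0 replicate 1 gave 25 members and 9188 of 33317 genes, and leaving out replicate 2 gave 31 and 9150 of 33313. By positions the day 8 calls went to 0 without either day 0 library, to 1 without day 8 replicate 2, and stayed at 2 or 3 without any of the others. Over all genes the shares were 1.37% and 0.892% without day 0 replicates 1 and 2, and 3.59% without day 8 replicate 2. Without the others they were 3.33 to 4.13%.

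**Figure D5:**
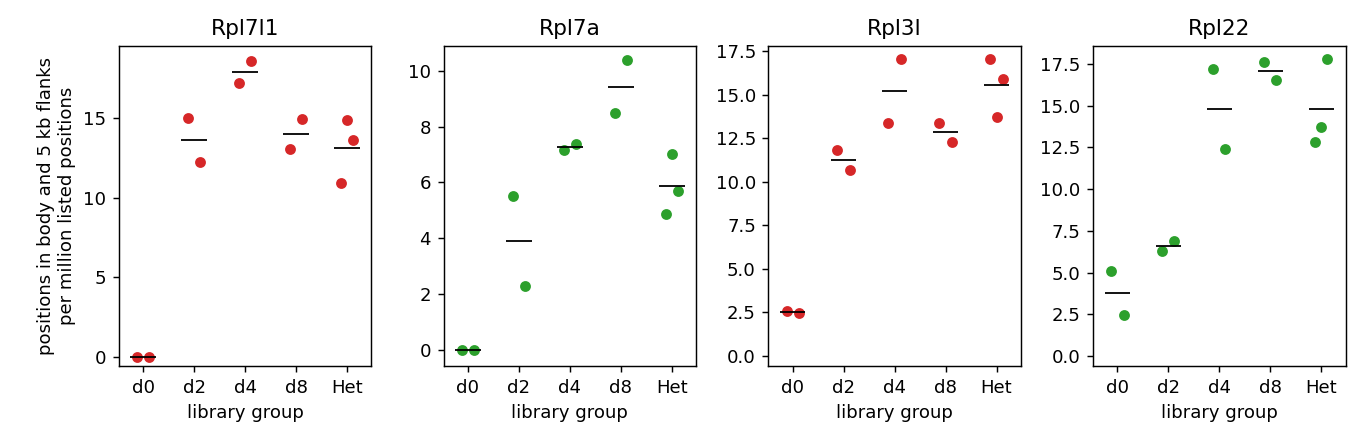
Positions in body and 5 kb flanks per 1000000 listed positions of the library for the 4 genes called on day 8 against day 0, with 1 point per library and a bar at the group mean. Rpl7l1 and Rpl7a are at 0 in both day 0 libraries, which held 1 and 1 positions of Rpl3l and 2 and 1 of Rpl22, and every library of the other groups lies above them.

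In the related lists, on day 8 against day 0 by reads, 2 of 78 mitochondrial ribosomal protein genes were called higher, 1 of 52 ribosome assembly factors higher and 1 lower, and 5 of 38 translation factors higher, against 1.93% higher and 1.27% lower over all genes. Polr1a, the largest subunit of RNA polymerase I, which transcribes the ribosomal RNA, was the one that fell (by 0.95 on the log2 scale by positions, adjusted p = 0.000209 by edgeR), with 42 and 36 positions on day 0 and 165 and 146 on day 8 in the deeper libraries. Wdr43, a factor of small-subunit assembly, rose by 1.47 ± 0.46 and Nop2, which methylates ribosomal RNA, by 2.47 ± 0.6 by positions. Eef2, the elongation factor that moves the ribosome along, had 1 and 1 positions on day 0 and 44 and 31 on day 8. Mrps7 of the mitochondrial small subunit had 1 and 1 and then 48 and 31. The median log2 change by reads was 0.75 in translation factors, 0.47 in mitochondrial ribosomal proteins and 0.20 in ribosome assembly factors, beside 0.82 in the standard set.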

How the data were processed

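The 16 libraries hold enriched azide-labelled DNA, read by Ion Proton sequencing. Per the submitters' processing notes, cutadapt 4.4, BWA 0.7.17-r1188, SAMtools 1.12 and mm10 were used. The deposited tables hold raw read counts per CpG position, with no position below 1 read. Positions and reads were summed over RefSeq gene bodies and 5 kb flanks. Members and gene lists were chosen with earlier results of these data known. Counts were tested with edgeR 4.0.16 (filterByExpr, TMM, quasi-likelihood) in R 4.3.3, with Benjamini-Hochberg adjustment over all genes and a threshold of 0.05. Days were compared over 8 libraries, and bodies with flanks over 11, with the library as a block and length as an offset. The common coefficient of variation between libraries was 0.386 for the days and 0.542 for body against flanks by reads, and 0.00988 for both by positions. The fits were tested on simulated data. Alternatives included DESeq2 1.42.0. Named were members called in a comparison (at most 8 each way on day 8 against day 0 and for body against flanks, 4 otherwise), the 5 with the most and the 5 with the fewest positions per kb, the 5 with the largest share of reads at 1 position, a fixed list of 16 members, and all paralogs with Rps19bp1. Members named for promoter CpGs, an empty body or a body not below its flanks were chosen after their values were seen.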

Additional observations from a re-analysis of the deposited data

How the results depend on the processing

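Counts below are members called at an adjusted p under 0.05. Percentages in parentheses are the shares called of all genes tested in that setting. The day comparisons by reads tested 87 members unless another number is given. By reads, day 8 against day 0 gave 3 calls (3.2%), 1 of 73 in the standard set alone, 6 with library totals (3.13%) and 19 with DESeq2 (18%). It gave 5 with no filter (3.33%) and 6 with 10 kb flanks (3.99%). With autosomal protein-coding genes only it gave 6 (4.57%), and with only the 4 libraries compared 0 (0%). Day 4 against day 0 gave 5 (3.42%), 3 of 73 in the standard set and 17 with DESeq2 (18.5%). It gave 3 of 48 for bodies (2.93%) and 0 with the 4 libraries (0%). Day 2 against day 0 gave 2, and 0 in the standard set, 17 with DESeq2, 0 for bodies, 1 with 2 kb flanks, 4 with 10 kb flanks and 0 with the 4 libraries. Leaving out 1 library gave 0 to 31, 0 to 31 and 0 to 26 calls (0 to 27.6%, 0 to 28.1% and 0 to 25.8%). By positions the 3, 3, 1 and 1 calls of day 8, day 4 and day 2 against day 0 and of day 8 against day 2 all went to 0 with DESeq2, to 1, 1, 0 and 0 for bodies and for 2 kb flanks, and to 5, 6, 2 and 1 with 10 kb flanks. Of all genes, the main fits (54 members tested) called 4.43, 4.43, 1.01 and 0.25%, and DESeq2 2.32, 2.26, 0.508 and 0.00348%. For bodies (4 members tested) the shares were 5.03, 4.45, 1.15 and 0.225%, and with 2 kb flanks (6 tested) 4.63, 4.06, 1.09 and 0.204%. With 10 kb flanks (86 tested) they were 5.75, 5.6, 1.32 and 0.274%. The standard set alone gave 1 of 45 on day 4 and 0 of 45 on day 2. The 4 libraries alone gave 1 of 29 on day 8 (1.75%), 1 of 17 on day 4 (2.65%) and 0 of 53 against day 2 (0.193%). No filter gave 0 of 87 against day 2 (0.19%). Leaving out 1 library gave 0 to 3 (0.892 to 4.13%), 1 to 3 (0.895 to 4.23%), 0 to 1 (0.124 to 0.943%) and 0 to 1 (0.00969 to 0.251%). With the replicate block the counts were 2, 2, 0 and 0 by reads and 3, 2, 1 and 0 by positions, in the same order. The shares of all genes were 0.84, 0.686, 0 and 0% by reads and 4.3, 4.34, 1.01 and 0.243% by positions. Same-numbered libraries showed no shared deviation (correlations -0.012 to 0.016). In sparse counts counting error can hide a pairing, so these values cannot show whether replicate numbers pair the samples. Body against flanks gave 30 calls of 68 members tested by reads (13.5%), 2 of 32 with 2 kb (10.2%) and 55 of 82 with 10 kb flanks (20.9%). It gave 16 of 48 with flanks outside other genes (14.3%) and 14 of 42 with the flank before the start (18.3%). With the flank after the end it gave 11 of 41 (13.4%), and in the 3 Het libraries 5 of 86 (1.08%). By positions it gave 9 of 10 (49.7%), 5 of 5 in the standard set and 57 of 87 with no filter (41.1%). It gave 0 of 1 with 2 kb (42.5%), 47 of 53 with 10 kb (52.9%) and 2 of 4 outside other genes (50%). Before the start it gave 1 of 1 (51.5%), after the end 2 of 2 (47.5%) and in Het 21 of 44 (22.6%). Leaving out 1 library gave 21 to 34 by reads (8.68 to 18.2%) and 6 to 12 by positions (46.3 to 48.8%). The ratio of Rpl22 turned from -0.43 to 0.027 in Het alone. Narrower flanks left fewer members to test, and by reads a smaller part of those tested was called. The causes of these changes were not tested. Promoter CpGs listed in at least 2 libraries were 0.241% in the standard set and 9.13% in paralogs. The summed density of the members on day 8 over day 0 by positions was 1.55 to 1.74 over body with flanks, 3.01 to 3.63 over bodies and 1.38 to 1.54 over flanks when 1 library was left out, and by reads 1.51 to 1.59, 2.50 to 2.79 and 1.37 to 1.44. Of the results for single genes, 729 kept their direction and side of the threshold, 245 kept only their direction and 1 reversed. Day 0 limits the precision, with 19 positions in the standard bodies.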

Other observations

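The X-linked ribosomal protein genes, which are not among the 87, had low bodies as well. Rpl39 had 0.739 listings per kb of body and 6.5 per kb of flank, Rpl10 had 1.29 and 3.2, Rps4x had 1.57 and 2.9, and Rpl36a had 0.83 and 9. The autosomal retrocopies of Rpl39 and Rpl10, Rpl39l and Rpl10l, had 12.5 and 26.4 per kb of body.

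Annotated pseudogenes of ribosomal protein genes had denser bodies than flanks. Of 272 such pseudogenes (median length 531 bases), 252 held a listed position. Summed over all of them, bodies had 18.3 listings per kb and flanks 9.98, while the standard set had 5.38 and 10.7.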
